A study of Mus musculus with 20 samples.

Results

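Colonic stem cells of germ-free (GF) mice were compared between 3 and 15 weeks of age in whole-genome bisulfite data. There were 4 samples at 15 weeks and 2 others at 3 weeks, so no sample was followed over time. All samples with the labels GF and colonic stem cell were taken, which gave 6 of the 20 samples of the study. The mice at both ages were C57BL/6J animals with the genotype Lgr5EGFP-IRES-CreERT2, a knock-in that puts a green fluorescent reporter and an inducible Cre under the control of Lgr5, a gene of crypt base stem cells. The knock-in replaces an Lgr5 allele and is known to be silent in many crypts, so the cells it marks are a subset. Of the 4 samples at 15 weeks 2 were from males, and of the 2 at 3 weeks 1 was. The sets used beside them were GF differentiated cells at 15 weeks (4 samples) and at 3 weeks (2 samples), and specific-pathogen-free (SPF) stem cells at 15 weeks and at 3 weeks (2 samples each), all of the same strain and knock-in. The sources used here do not say how stem and differentiated cells were separated.

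DNA methylation at CpG sites is written by the Dnmt3 enzymes and copied to the new strand after each cell division by Dnmt1 and its partner Uhrf1. In the gut epithelium it is largely stable between stem cells and their short-lived progeny, while single enhancers gain or lose methylation as the tissue matures after birth. Weaning, when the diet changes and in conventional animals a dense microbiota forms, falls near the earlier age studied here. GF mice are weaned as other mice are, but meet no bacteria. The comparison of ages in them thus sets stem cells near weaning beside adult ones in the absence of a microbiota.

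The data are methylation fractions, the share of methylated cytosines from 0 to 1, in 1195 regions of 10 to 49 CpGs on mm10. The read depth behind a fraction is unknown, which leaves the spread between samples as the measure of error. Every region has a negative difference in the authors' deposited table, and the header does not say between which groups. Across regions it tracked the contrast of SPF with GF stem cells at 15 weeks (r = 0.888, SPF minus GF, regions not being independent replicates), so the regions are taken here as chosen for high methylation in GF and low methylation in SPF stem cells at 15 weeks. This reading of the choice was not tested. If it holds, the 15-week GF stem values entered the choice of regions, which would favour gains over losses in GF mice. The counts below describe these regions, not the genome. Lgr5 has 0 regions in the table, and only 4 of 24 stem cell marker genes have any, so the identity of the cells could not be checked here. The identifiers of 15-week replicates 1 and 2 end in Co and those of replicates 3 and 4 begin with GFp, as both 3-week identifiers do. What these styles stand for is not given. Differences in methylation are given as 15 minus 3 weeks with a standard error (SE) from limma, and a region is called at an adjusted p under 0.05.

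Among the regions called with age in GF stem cells were 4 that wholly contained a 300-base window around a RefSeq transcription start. Part of the genome was left out of this search. A window holds 250 bases before the start and 50 after it. These 4 regions are shown because there the measured region covers a start site itself. The sequences are from RefSeq, GRCm38.p6, 5′ to 3′ on the strand of the gene, and capitals mark each CG, the motif that carries the methylation and that reads the same on both strands.
Apobec3: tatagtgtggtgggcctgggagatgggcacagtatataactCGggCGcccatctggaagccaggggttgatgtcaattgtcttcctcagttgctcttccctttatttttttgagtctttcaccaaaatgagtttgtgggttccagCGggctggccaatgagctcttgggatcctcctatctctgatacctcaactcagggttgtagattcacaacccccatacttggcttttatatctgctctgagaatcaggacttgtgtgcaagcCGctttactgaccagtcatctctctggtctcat
Gm30139: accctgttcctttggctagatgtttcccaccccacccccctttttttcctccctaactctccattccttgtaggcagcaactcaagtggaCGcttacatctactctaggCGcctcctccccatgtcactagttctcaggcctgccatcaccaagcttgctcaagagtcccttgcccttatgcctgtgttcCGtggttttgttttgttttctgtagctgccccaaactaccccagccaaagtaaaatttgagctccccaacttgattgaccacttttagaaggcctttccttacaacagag
Gm29944: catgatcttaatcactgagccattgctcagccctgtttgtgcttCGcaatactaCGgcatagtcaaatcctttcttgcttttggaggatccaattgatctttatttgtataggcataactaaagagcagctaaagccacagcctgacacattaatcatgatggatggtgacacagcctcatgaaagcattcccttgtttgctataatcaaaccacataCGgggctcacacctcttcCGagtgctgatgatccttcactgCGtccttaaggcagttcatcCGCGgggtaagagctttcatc
3300002A11Rik: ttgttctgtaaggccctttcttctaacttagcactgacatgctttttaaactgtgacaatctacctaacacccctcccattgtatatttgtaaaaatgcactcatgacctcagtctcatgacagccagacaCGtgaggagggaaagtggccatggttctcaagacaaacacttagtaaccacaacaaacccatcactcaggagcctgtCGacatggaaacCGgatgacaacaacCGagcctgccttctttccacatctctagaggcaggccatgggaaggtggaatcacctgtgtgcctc
The windows hold 4, 3, 7 and 4 CG pairs in the order printed. Over all 32851 RefSeq windows of the same length, 94.6% hold at least 1 CG pair and the median is 7 (quartiles 3 and 20). In all, 26 of the 1195 regions overlap such a window.

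Both coding and non-coding starts were among them, in both directions. Apobec3, which encodes a cytidine deaminase that restricts retroviruses, lies on the plus strand (window chr15:79894773-79895072, region chr15:79894591-79895135, promoter-like element), and its region had fractions of 0.743, 0.807, 0.664 and 0.879 at 15 weeks, against 0.962 and 0.922 at 3 weeks. All 15-week samples lay below both 3-week samples, and the change was -0.169 ± 0.0569 (SE, adjusted p = 0.037). The start of Gm30139, on the minus strand within the gene body of Slc37a1 (window chr17:31294812-31295111, region chr17:31294547-31295278), had 0.534, 0.452, 0.452 and 0.626 at 15 weeks, against 0.844 and 0.670 at 3 weeks, a change of -0.241 ± 0.0501 (SE, adjusted p = 0.00196). The groups did not overlap there either. Gains were measured at Gm29944 on the minus strand (window chr10:125938565-125938864, region chr10:125938228-125938928), with 0.556, 0.570, 0.470 and 0.471 at 15 weeks, against 0.334 and 0.362 at 3 weeks, a change of 0.169 ± 0.0521 (SE, adjusted p = 0.023). At 3300002A11Rik, on the plus strand within Foxn3 (window chr12:99340781-99341080, region chr12:99340581-99341704), the fractions were 0.593, 0.450, 0.545 and 0.563 at 15 weeks, against 0.407 and 0.341 at 3 weeks, a change of 0.164 ± 0.0462 (SE, adjusted p = 0.0145). At both of these starts every 15-week sample was above both 3-week samples. Each of the 4 calls needed at least 1 of the 3-week samples. Without replicate 1 the changes at Apobec3, Gm30139 and Gm29944 were -0.149, -0.154 and 0.155, and without replicate 2 those at Apobec3, Gm29944 and 3300002A11Rik were -0.189, 0.183 and 0.131, none past the threshold. The call at Apobec3 was also lost without 15-week replicate 1 (-0.159) or 3 (-0.133), that at Gm29944 without 15-week replicate 1 (0.156) or 2 (0.151) and within the GFp style (0.123), and that at 3300002A11Rik with the Co samples alone (0.148). With the spread of the compared groups alone, the calls at Apobec3, Gm29944 and 3300002A11Rik were lost and that at Gm30139 was kept.

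The level over all regions lay close at the 2 ages, and whether the samples overlapped depended on the summary. The mean fraction over the 1195 regions was 0.591, 0.583, 0.606 and 0.606 in the 15-week samples, against 0.612 and 0.603 in the 3-week samples. The ranges of the means overlapped, with 0.596 ± 0.0115 at 15 weeks (SD, n = 4) and 0.607 ± 0.00629 at 3 weeks (SD, n = 2). The difference of -0.0111 gave a two-sided exact permutation p of 0.4, in a design whose smallest possible p is 0.133. The median fraction over the same regions was 0.598, 0.594, 0.622 and 0.615 in the 15-week samples, against 0.640 and 0.628 in the 3-week samples. By the median every 15-week sample was lower, and the difference of -0.0264 gave that smallest p (exact permutation p = 0.133). The same p of 0.133 (exact permutation) was found for the mean over the regions with at least 15 CpGs, 0.609 ± 0.0108 at 15 weeks and 0.631 ± 0.00457 at 3 weeks (SD), a difference of -0.0217. The difference in means over all regions was -0.00158 with the GFp samples and -0.0207 with the Co samples (exact permutation p = 1 and 0.333, the second being the smallest that 2 against 2 samples can give). The median change of a region was -0.00956, and 736 regions (61.6%) moved by less than 0.1. In bulk samples a change in the mix of cells and a change of methylation within cells cannot be told apart.

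Beneath that level, single regions moved in both directions. By limma over all 1195 regions, 161 regions (13.5%) fell and 103 (8.62%) rose between 3 and 15 weeks, and the largest changes were -0.521 and 0.445. All 15-week samples lay below both 3-week samples in 254 regions (21.3%) and above both in 195 (16.3%). Among the called regions, groups that did not overlap made up 157 of the 161 losses and 100 of the 103 gains. Without 3-week replicate 1, 89 regions fell and 66 rose, and without 3-week replicate 2, 97 fell and 59 rose. With the spread of the 2 groups alone 90 fell and 58 rose. Within the identifier style shared by both ages (GFp, 2 against 2 samples), 103 of the 161 losses and 76 of the 103 gains were still called, and with the Co samples alone 133 and 84 were. Every one of the 264 called regions kept its direction under each of these settings. Among the 181 regions with at least 15 CpGs, 30 fell and 19 rose.

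**Figure D1:**
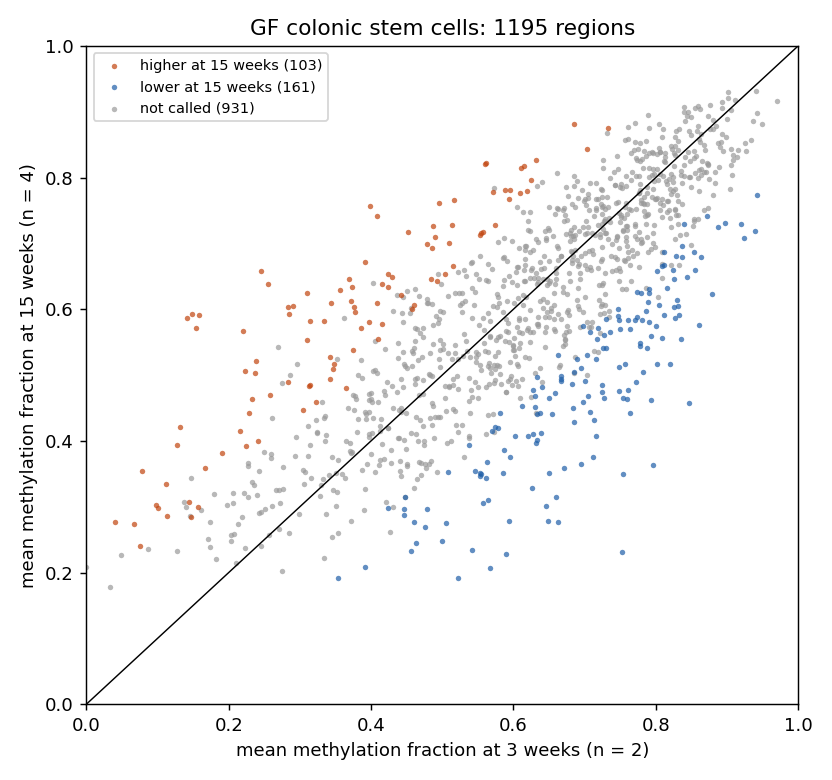
Mean methylation fraction of each of the 1195 regions in GF stem cells at 15 weeks (vertical, 4 samples) against 3 weeks (horizontal, 2 samples), with 103 called gains, 161 called losses and 931 regions not called; the line marks equal values. Gains lie at low and middle levels of the 3-week axis and losses at middle and high levels.

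The direction of the change went with the level at 3 weeks. Of 35 regions with a 3-week mean under 0.2, 19 were called gains and 0 losses. From 0.2 to 0.4 there were 41 gains and 2 losses among 147 regions, and from 0.4 to 0.6 the numbers were even, with 34 gains and 33 losses among 332. From 0.6 to 0.8 there were 9 gains and 90 losses among 488 regions, and from 0.8 upward 0 gains and 36 losses among 193. The 3-week mean is part of the change it is set against, so this order is a description and was not tested. The per-sample medians show both sets. Over the 103 gained regions they were 0.629, 0.587, 0.610 and 0.603 at 15 weeks, against 0.388 and 0.362 at 3 weeks. Over the 161 lost regions they were 0.483, 0.491, 0.510 and 0.485 at 15 weeks, against 0.715 and 0.705 at 3 weeks. The regions were picked by these same samples, so the medians carry no test.

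The regions described next are the 12 largest losses and the 12 largest gains among called regions at genes whose groups did not overlap, with 1 region per gene. Intergenic regions took no place in this order, and some of them changed as much. An intergenic loss of -0.433 (chr1:151328416-151328702) was second to that of Cnn3, with fractions of 0.243, 0.307, 0.539 and 0.366 at 15 weeks, against 0.820 and 0.773 at 3 weeks. Intergenic gains of 0.432 (chr6:37617159-37617893) and 0.418 (chr1:86482401-86482586) stood above all but those of Map7 and Gm20388, and those of 0.359 (chr2:32514165-32514581) and 0.346 (chr13:29165236-29165425) above that of Bend7.

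Among the 12 losses at genes were those of Kcne3 and Slc9a8. Kcne3 encodes the subunit that, with Kcnq1, forms the basolateral potassium channel of colonic crypts that supports chloride secretion. Its region (chr7:100184383-100184893) had fractions of 0.462, 0.423, 0.515 and 0.428 at 15 weeks, against 0.820 and 0.874 at 3 weeks. The highest 15-week sample was well below the lower 3-week sample, and the change was -0.390 ± 0.0452 (SE, adjusted p = 1.01e-05). Slc9a8 encodes a sodium/proton exchanger of the intestinal epithelium. Its region (chr2:167424093-167424571) had 0.452, 0.318, 0.260 and 0.366 at 15 weeks, against 0.793 and 0.715 at 3 weeks, with no overlap and a change of -0.405 ± 0.0542 (SE, adjusted p = 4.54e-05).

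The losses at Cnn3, Ntn4 and Dlgap1 were also among the 12. Cnn3 encodes calponin 3, an actin-binding protein, and its proximal enhancer-like element (chr3:121428611-121429233) had the largest loss of all regions. The fractions were 0.207, 0.269, 0.217 and 0.233 at 15 weeks, against 0.684 and 0.821 at 3 weeks. The 15-week samples fell within a narrow band, far below both 3-week samples, and the change was -0.521 ± 0.0486 (SE, adjusted p = 1.49e-06). Ntn4 encodes netrin 4, a basement membrane protein. Its region (chr10:93682632-93683071) had 0.247, 0.148, 0.130 and 0.301 at 15 weeks, against 0.563 and 0.570 at 3 weeks. This gave a change of -0.360 ± 0.0708 (SE, adjusted p = 0.0015) with no overlap. Dlgap1, a scaffold gene known from synapses, changed by -0.331 ± 0.0672 (SE, adjusted p = 0.00176) at chr17:70561003-70561401, and its 15-week samples were spread widely, from 0.379 to 0.617.

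The other losses of the 12 were at Cdca7, Foxk1, Prkca, Optn, Dcun1d4, Sft2d2 and Cped1. Cdca7 encodes the partner of the helicase Hells, with which it supports the maintenance of DNA methylation, and its transcript is counted among intestinal stem cell markers. Its distal enhancer-like element (chr2:72478273-72479178, 18 CpGs) had 0.201, 0.157, 0.194 and 0.218 at 15 weeks, against 0.534 and 0.511 at 3 weeks, and its 15-week samples were the least spread of the 12 losses. The change of -0.330 ± 0.0360 (SE, adjusted p = 6.34e-06) was called under every alternative. Foxk1, a forkhead transcription factor gene, changed by -0.385 ± 0.0527 (SE, adjusted p = 5.3e-05) at chr5:142420645-142421570, with means of 0.277 ± 0.0343 at 15 weeks and 0.662 ± 0.0522 at 3 weeks (SD). Prkca encodes protein kinase C alpha, and its distal enhancer-like element (chr11:108248399-108248771) changed by -0.330 ± 0.050 (SE, adjusted p = 0.000165). Optn encodes optineurin, a receptor for selective autophagy that also binds ubiquitin chains. Its proximal enhancer-like element (chr2:5036528-5036874) had means of 0.279 ± 0.0709 at 15 weeks and 0.649 ± 0.0764 at 3 weeks and changed by -0.370 ± 0.0570 (SE, adjusted p = 0.000174). Dcun1d4, of a family that promotes the attachment of Nedd8 to cullins, changed by -0.316 ± 0.0670 (SE, adjusted p = 0.00221) at chr5:73557004-73557349. Sft2d2, of a family of membrane proteins of vesicle transport, changed by -0.337 ± 0.0423 (SE, adjusted p = 2.42e-05) at chr1:165191985-165192718. Cped1 (chr6:22010313-22010697) changed by -0.362 ± 0.0720 (SE, adjusted p = 0.00162), and this call was lost without 3-week replicate 1, when the change was -0.240.

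**Figure D2:**
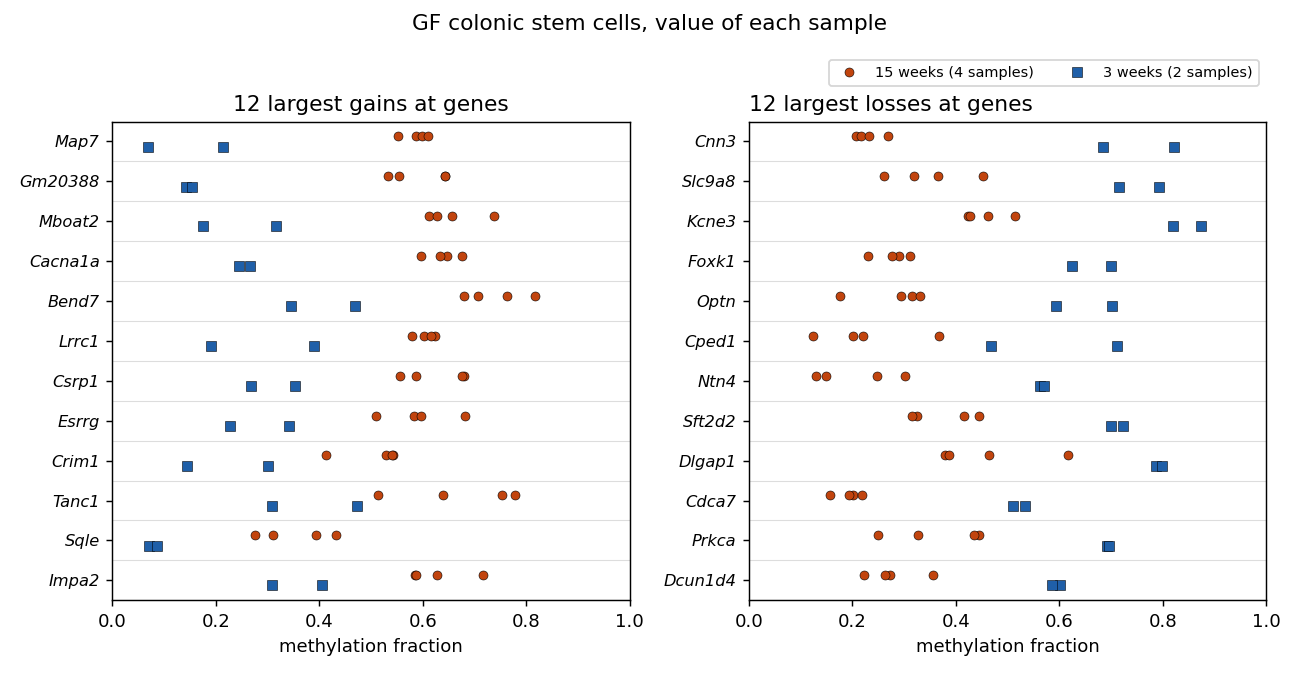
Methylation fraction of each GF stem cell sample at the 12 largest gains (left) and 12 largest losses (right) among called regions at genes, 1 region per gene and intergenic regions left out, with 15-week samples as circles and 3-week samples as squares. In all 24 regions the 4 samples at 15 weeks lie beyond both samples at 3 weeks, a condition of the choice, with Cnn3 and Map7 at the extremes.

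Among the 12 largest gains at genes were those of Sqle, Mboat2 and Esrrg. Sqle encodes squalene epoxidase, a rate-limiting enzyme of cholesterol synthesis, and its proximal enhancer-like element (chr15:59316565-59317153) had fractions of 0.276, 0.311, 0.433 and 0.395 at 15 weeks, against 0.0717 and 0.0860 at 3 weeks. Methylation there was low at 3 weeks and higher in every sample at 15 weeks, with a change of 0.275 ± 0.0420 (SE, adjusted p = 0.000166). Mboat2 encodes an acyltransferase that remodels phospholipids. Its region (chr12:24891070-24891563) had 0.612, 0.628, 0.657 and 0.737 at 15 weeks, against 0.317 and 0.175 at 3 weeks, a change of 0.413 ± 0.0646 (SE, adjusted p = 0.000188). Esrrg encodes an orphan nuclear receptor of energy metabolism. The larger of its called regions (chr1:187740384-187741148) had 0.681, 0.584, 0.597 and 0.510 at 15 weeks, against 0.342 and 0.228 at 3 weeks. No sample overlapped, and the change was 0.308 ± 0.0537 (SE, adjusted p = 0.000547). The other (chr1:188154783-188154963, distal enhancer-like element) changed by 0.186 ± 0.0561 (SE, adjusted p = 0.0207), which lost its call without 15-week replicate 2 (0.151) and without 3-week replicate 1 (0.120). That call was also lost within the GFp style (0.1505) and with the spread of the compared groups alone.

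The largest gain was at Map7, which encodes a microtubule-binding protein of epithelial cells. Its distal enhancer-like element (chr10:20205485-20205806) had 0.587, 0.598, 0.553 and 0.610 at 15 weeks, against 0.0688 and 0.215 at 3 weeks. The 15-week samples lay together and the 3-week samples far below, and the change was 0.445 ± 0.0534 (SE, adjusted p = 1.44e-05). Csrp1, a LIM domain protein gene tied to actin, gained as well, by 0.314 ± 0.0577 (SE, adjusted p = 0.000887) at chr1:135731610-135732177. Cacna1a encodes the pore of the P/Q type calcium channel. Its region (chr8:84570023-84570412) had 0.647, 0.597, 0.634 and 0.676 at 15 weeks, against 0.245 and 0.265 at 3 weeks, which are narrow groups far apart, and a change of 0.383 ± 0.0385 (SE, adjusted p = 2.61e-06). Crim1, which encodes a membrane protein that binds bone morphogenetic proteins, changed by 0.284 ± 0.0622 (SE, adjusted p = 0.00299) at chr17:78304223-78304491, and Tanc1, a scaffold protein gene, by 0.280 ± 0.0693 (SE, adjusted p = 0.00666) at chr2:59779446-59780253. Both calls were lost without 3-week replicate 2, when the changes were 0.205 and 0.198. Impa2, which encodes an inositol monophosphatase, changed by 0.273 ± 0.0520 (SE, adjusted p = 0.00109).

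Less is known of the other large gains. Gm20388, a predicted gene (chr8:120980964-120981132, distal enhancer-like element), had 0.532, 0.553, 0.643 and 0.642 at 15 weeks, against 0.142 and 0.155 at 3 weeks. Its change of 0.444 ± 0.0497 (SE, adjusted p = 7.29e-06) was second to that of Map7. Bend7, a BEN domain gene (chr2:4783892-4784362), had 0.763, 0.706, 0.681 and 0.817 at 15 weeks, against 0.346 and 0.470 at 3 weeks, a change of 0.334 ± 0.0439 (SE, adjusted p = 3.83e-05). Lrrc1, of the family of leucine-rich repeat proteins of the lateral membrane (chr9:77486026-77486307), changed by 0.315 ± 0.0564 (SE, adjusted p = 0.000684) with means of 0.605 ± 0.0193 at 15 weeks and 0.290 ± 0.140 at 3 weeks. In each of these the 15-week samples were all above the 3-week samples.

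Gene lists for the tissue, chosen with earlier results of these data known, covered 90 regions at 71 genes. Of these, 11 fell and 9 rose, and their median change was -0.00234, beside -0.00956 over all 1195 regions. The called shares of all regions were 13.5% for losses and 8.62% for gains, and the listed regions lay close to them. Each list had at most 4 calls in either direction, and a difference between lists was not tested.

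Genes of the stem cell and of its niche signals had few regions. Of the 5 regions at stem cell markers 1 fell, that of Cdca7, and the median change was -0.126. Those at Cd44 (-0.128 and -0.0235), Prom1 (-0.126) and Axin2 (-0.0811) were not called. The 4 Wnt signalling regions, at Tcf7l2, Axin2 and Lrp5, had changes from -0.0811 to 0.105 and no call. The list for BMP, TGF-beta and Hedgehog signals had 1 region, at Smad1, which encodes a transcription factor that carries BMP signals (chr8:79392255-79393113). It had 0.225, 0.188, 0.264 and 0.303 at 15 weeks, against 0.373 and 0.552 at 3 weeks, a change of -0.218 ± 0.0482 (SE, adjusted p = 0.00315) that was lost without 3-week replicate 2 (-0.128). The single Notch region, at Jag1, changed by 0.0949 and was not called. On the list of the DNA methylation machinery Cdca7 was the only gene with a region. Of the 5 regions of fetal and regenerative genes 1 fell, at Igf2bp2, an RNA-binding protein gene of fetal tissue (chr16:22129164-22129643), by -0.161 ± 0.0464 (SE, adjusted p = 0.0164).

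Genes of differentiated functions had calls in both directions. Of 5 goblet cell and mucus regions 2 fell. Muc1 encodes a membrane mucin, and its region (chr3:89231903-89232129) had 0.590, 0.574, 0.557 and 0.642 at 15 weeks, against 0.836 and 0.829 at 3 weeks, a change of -0.241 ± 0.0624 (SE, adjusted p = 0.00859). Galnt12, which starts mucin-type O-glycosylation and is on both lists, changed by -0.166 ± 0.0528 (SE, adjusted p = 0.0269) at chr4:47093220-47094070. The pair of regions at Muc13 went in opposite directions without a call (-0.137 and 0.140). In the glycosylation list, Galnt10, of the same enzyme family as Galnt12, had a distal enhancer-like element (chr11:57664437-57664917) with 0.435, 0.540, 0.460 and 0.417 at 15 weeks, against 0.220 and 0.246 at 3 weeks. All 15-week samples were higher and the change was 0.230 ± 0.0467 (SE, adjusted p = 0.00176). Galnt7 (0.220) and Galnt17 (0.174) were not called. The absorptive colonocyte list had 1 region, at Ceacam1 (-0.0768, not called), and the enteroendocrine and tuft cell list and the circadian clock list had 0. Of 2 regions at genes of the suckling-to-adult transition 1 rose. It lies at Prdm1, which encodes Blimp1, the repressor that in the mouse small intestine holds back the adult program until weaning (chr10:44449579-44450195, distal enhancer-like element). Its fractions were 0.798, 0.788, 0.778 and 0.748 at 15 weeks, against 0.556 and 0.588 at 3 weeks. The groups were apart and the change of 0.206 ± 0.0420 (SE, adjusted p = 0.00176) was called under every alternative that tested it. The tight junction and adhesion list had 10 regions with changes from -0.0518 to 0.0545 and no call.

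Lists for other cell types the sample could hold had almost no regions in the table. The immune cell marker list had 0, and the stromal and endothelial list had 3, at Acta2, Pecam1 and Vwf, with changes from -0.0748 to 0.0499 and no call. Their part in the results was not tested.

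Lipid metabolism and nuclear receptor genes had 15 regions, of which 2 fell and 4 rose, with a median change of 0.0572. Besides both Esrrg regions, the gains included that of Pparg. Pparg encodes a nuclear receptor for fatty acids that is active in colonocytes (chr6:115365831-115366817), and its fractions were 0.676, 0.689, 0.669 and 0.538 at 15 weeks, against 0.523 and 0.462 at 3 weeks. It changed by 0.150 ± 0.0475 (SE, adjusted p = 0.0263). The losses were at Pla2g5, a secreted phospholipase gene (chr4:138826773-138826996, -0.282 ± 0.0562 (SE, adjusted p = 0.00166)), and Elovl5, an elongase gene for polyunsaturated fatty acids (chr9:77920748-77921343, -0.176 ± 0.0496 (SE, adjusted p = 0.0145)). The other 3 regions at Pla2g5 had changes from -0.0525 to 0.113 and were not called.

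Regions at genes of immunity and microbial sensing had median changes near 0. Antigen presentation and epithelial immune genes had 15 regions with a median change of 0.00935, of which 1 fell and 1 rose. B2m encodes the light chain of MHC class I, and its proximal enhancer-like element, shared with Patl2 (chr2:122149191-122150089), had 0.601, 0.703, 0.709 and 0.738 at 15 weeks, against 0.819 and 0.804 at 3 weeks. The change was -0.124 ± 0.0438 (SE, adjusted p = 0.048). H2-Ab1 encodes a chain of MHC class II, and its called region (chr17:34265344-34265719, distal enhancer-like element) had 0.607, 0.652, 0.703 and 0.809 at 15 weeks, against 0.516 and 0.456 at 3 weeks, a change of 0.207 ± 0.0601 (SE, adjusted p = 0.0173). The other H2-Ab1 region and those at H2-Aa, Cd74, Ciita, Psmb8, Psmb9 and Nlrc5 had changes from -0.00170 to 0.0624 and were not called.

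Interferon response genes also had 15 regions, with a median change of -0.00286, of which 1 fell and 1 rose. Dhx58 encodes a helicase that modulates the sensing of viral RNA. The region near its start (chr11:100703245-100703937) changed by -0.160 ± 0.0539 (SE, adjusted p = 0.037). Of 7 regions at sensing and NF-kB genes 2 fell and 1 rose, with a median of -0.0109. Alpk1 encodes a kinase that senses a bacterial sugar. Its region, 303 bp from the start site by the authors' deposited annotation (chr3:127780830-127781297), had 0.440, 0.385, 0.336 and 0.485 at 15 weeks, against 0.542 and 0.736 at 3 weeks, a change of -0.228 ± 0.0564 (SE, adjusted p = 0.00666). Nfkb1, an NF-kB subunit gene, changed by -0.186 ± 0.0529 (SE, adjusted p = 0.0155) at chr3:135688257-135689148 (24 CpGs, distal enhancer-like element). Otulin encodes a deubiquitinase that removes linear ubiquitin, and the region it shares with Ank (chr15:27553523-27554062) rose by 0.143 ± 0.0383 (SE, adjusted p = 0.0105).

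Many of the calls at listed genes depended on single samples or on the choice of model. Without 3-week replicate 1, calls were lost, with the change in brackets, at B2m (-0.116), Otulin (0.0995), Igf2bp2 (-0.103), H2-Ab1 (0.236), Pla2g5 (-0.195), Elovl5 (-0.102), Muc1 (-0.238), Galnt12 (-0.135), Nfkb1 (-0.129), Pparg (0.181) and Dhx58 (-0.0708). Without 3-week replicate 2 they were lost at B2m (-0.132), H2-Ab1 (0.177), Muc1 (-0.245), Alpk1 (-0.131), Galnt12 (-0.196), Pparg (0.120) and Smad1 (-0.128). Without 15-week replicate 1 they were lost at B2m (-0.0951), Pparg (0.139) and Dhx58 (-0.132), without replicate 2 at B2m (-0.129), Galnt12 (-0.160), Pparg (0.135) and Dhx58 (-0.164), and without replicate 3 at B2m (-0.131), Galnt12 (-0.129) and Pparg (0.142). Within the GFp style the calls were lost at B2m (-0.0882), Elovl5 (-0.163), Nfkb1 (-0.131), Pparg (0.111) and Dhx58 (-0.124). With the Co samples alone they were lost at Otulin (0.125), Igf2bp2 (-0.127), H2-Ab1 (0.143) and Galnt12 (-0.128). With the spread of the compared groups alone they were lost at B2m, Otulin, Igf2bp2, Elovl5, Galnt12, Nfkb1, Pparg and Dhx58. Replicate number as a term removed those at B2m, Igf2bp2, H2-Ab1, Galnt12 and Dhx58, sex as a term that at B2m, and the logit scale that at Dhx58. Losses of the call at the smaller Esrrg region are given with that gene. The calls at Prdm1, Galnt10, Cdca7 and the larger Esrrg region were lost in none of these.

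**Figure D3:**
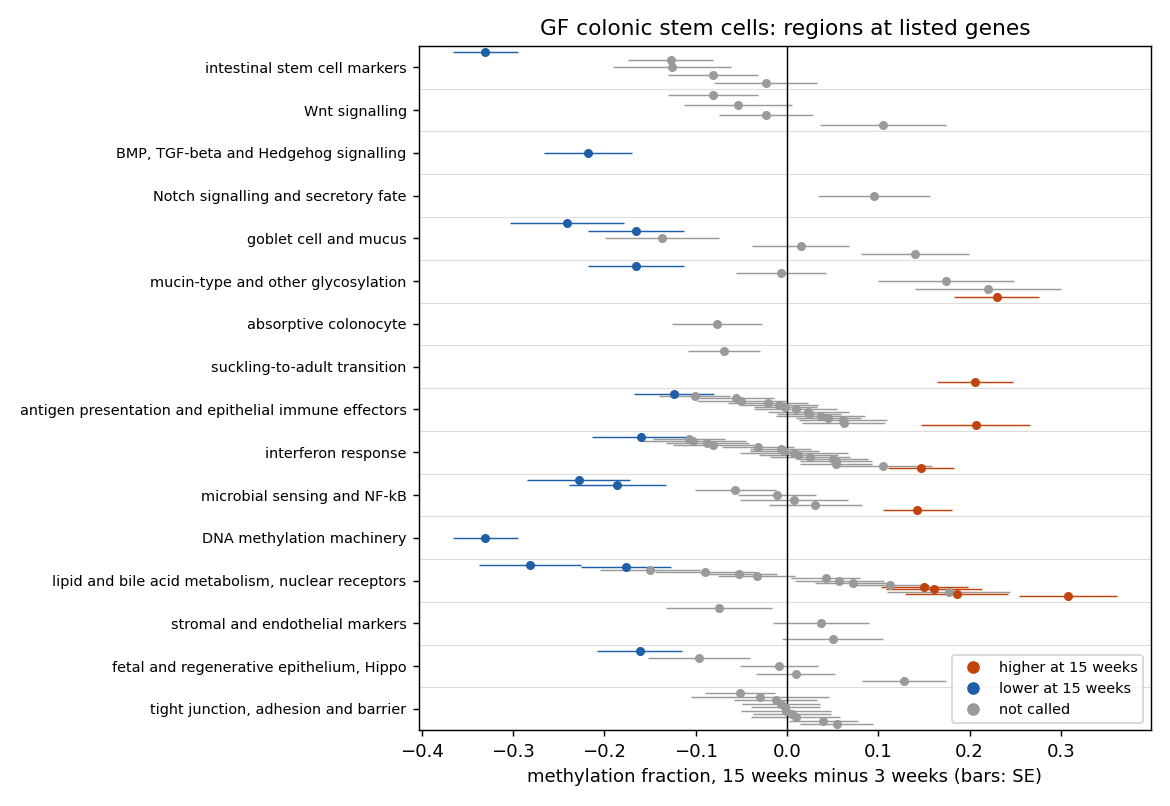
Change in methylation fraction from 3 to 15 weeks in GF stem cells (15 minus 3 weeks, bars are SE) of each region at a listed gene, by list, with called gains, called losses and regions not called in separate colours; a region on 2 lists is drawn in both. The 15 regions of the antigen presentation list and the 15 of the interferon list centre near 0, with 1 call in each direction.

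The 8 regions with the largest deposited difference, each at another gene, did not change past the threshold with age in GF stem cells. They lie at Hsd17b4, Ciita, Mybpc1, Lnx2, Plcb4, Eml2, Tnip1 and Irf1. Most regions of the table, 931 of 1195, were not called either, and whether these 8 depart from that share was not tested. Ranking by the deposited difference, as taken here, would also favour high GF values at 15 weeks and so work against losses. Ciita encodes the coactivator that switches on MHC class II genes, and its region (chr16:10490450-10491033) had 0.784, 0.825, 0.865 and 0.855 at 15 weeks, against 0.773 and 0.801 at 3 weeks. Its change was 0.0452 ± 0.0354 (SE, adjusted p = 0.393). At Hsd17b4, a peroxisomal fatty acid oxidation gene, the change was 0.0422 ± 0.0383 (SE, adjusted p = 0.469). The lowest and highest of the 8 changes were those of Plcb4, -0.122 ± 0.0689 (SE, adjusted p = 0.221), and Lnx2, 0.0599 ± 0.0466 (SE, adjusted p = 0.392). Plcb4 passed the threshold with the Co samples alone (-0.201). Irf1, a transcription factor gene of the interferon response (chr11:53773336-53774766, 27 CpGs), had 0.726, 0.802, 0.718 and 0.846 at 15 weeks, against 0.851 and 0.909 at 3 weeks. All its 15-week samples were lower, and the change of -0.107 ± 0.0394 (SE, adjusted p = 0.0582) missed the threshold, which it passed without 15-week replicate 4 (-0.131), on the logit scale and among regions with at least 15 CpGs. In SPF stem cells the 8 regions changed by between -0.632 (Irf1) and -0.368 (Lnx2) over the same ages, a difference that the choice of regions, as taken here, would favour.

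Of the 264 called regions 93 were in no gene body and near no start site by the authors' deposited annotation. Gene bodies held 69 of the 103 gains, 95 of the 161 losses and 720 of all 1195 regions (67.0%, 59.0% and 60.3%). Near a start site lay 3, 6 and 46 of them. The called regions were thus placed much like the table as a whole. When regions at most 25000 bp apart were joined, a grouping chosen after the values had been seen, the 1195 regions formed 1047 clusters. In 25 of them there were 3 or more regions, and in 2 of these at least 3 regions were called in the same direction. At no gene were 3 or more regions called, and at 12 genes 2 were.

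The densest set of losses lay on chromosome 15. All 5 of its regions (chr15:85664347-85682236, all distal enhancer-like elements) were called losses, with changes from -0.346 to -0.253. The first region (chr15:85664347-85664657) had 0.312, 0.307, 0.236 and 0.402 at 15 weeks, against 0.769 and 0.551 at 3 weeks, and the fourth (chr15:85679995-85680753) had 0.348, 0.222, 0.364 and 0.267 at 15 weeks, against 0.709 and 0.581 at 3 weeks. In each of these the highest 15-week sample was below both 3-week samples. The third (chr15:85678491-85678827) had 0.644, 0.537, 0.524 and 0.519 at 15 weeks, against 0.836 and 0.781 at 3 weeks, where replicate 1 stood above the rest of its group. By RefSeq the set ends 24367 bp before Mirlet7c-2, 25083 bp before Mirlet7b and 52674 bp before Ppara, which encodes a nuclear receptor for fatty acids, and 21537 bp before the long non-coding RNA gene Lncppara. In GF differentiated cells the same 5 regions changed by -0.564 to -0.389. Expression was not measured, and proximity does not assign a target.

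The other such set lay on chromosome 6 (chr6:31115910-31169759), within the long non-coding RNA gene Lncpint by RefSeq, and 52817 bp from Mir29b-1 and 53163 bp from Mir29a. Of its 7 regions 4 were called losses. The largest (chr6:31122598-31124754, 23 CpGs) had 0.455, 0.427, 0.499 and 0.482 at 15 weeks, against 0.726 and 0.782 at 3 weeks, a change of -0.288 ± 0.0364 (SE, adjusted p = 2.42e-05). The region after it (chr6:31127203-31128017) had 0.758, 0.674, 0.747 and 0.694 at 15 weeks, against 0.943 and 0.937 at 3 weeks, a change of -0.222 ± 0.0373 (SE, adjusted p = 0.000406), with no overlap between the ages in either. Calls at the other pair of losses, -0.163 ± 0.0514 (SE, adjusted p = 0.0258) and -0.144 ± 0.0456 (SE, adjusted p = 0.0268), were lost without 3-week replicate 1 (-0.122 and -0.148) and within the GFp style (-0.158 and -0.113). The call at the first of this pair was also lost without 15-week replicate 4 (-0.151), and that at the second without 15-week replicate 1 (-0.110) and without 3-week replicate 2 (-0.140). Both calls were lost with the spread of the compared groups alone, and the first with replicate number as a term. The 3 regions of the set that were not called changed by -0.0765, 0.0200 and 0.0912. In GF differentiated cells the 4 called losses changed by -0.0785, -0.243, -0.115 and -0.0594 in order of position. The first and the last of these were not called there. The last region of the set (chr6:31169418-31169759), not called in stem cells, was called a gain in differentiated cells (0.184).

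The miRNAs nearest to these sets are shown because each set lies beside 2 miRNAs of 1 seed family. The guide strands are given 5′ to 3′ from RefSeq (GRCm38.p6), and capitals mark the seed, bases 2 to 8.
mmu-let-7c-5p: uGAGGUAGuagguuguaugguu
mmu-let-7b-5p: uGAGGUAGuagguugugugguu
mmu-miR-29a-3p: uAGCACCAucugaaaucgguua
mmu-miR-29b-3p: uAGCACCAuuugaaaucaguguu
The let-7 pair shares the seed GAGGUAG and the miR-29 pair the seed AGCACCA. Let-7 is known for restraining growth and fetal genes, and miR-29 for targeting collagens and the Dnmt3 enzymes. No miRNA was measured here.

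**Figure D4:**
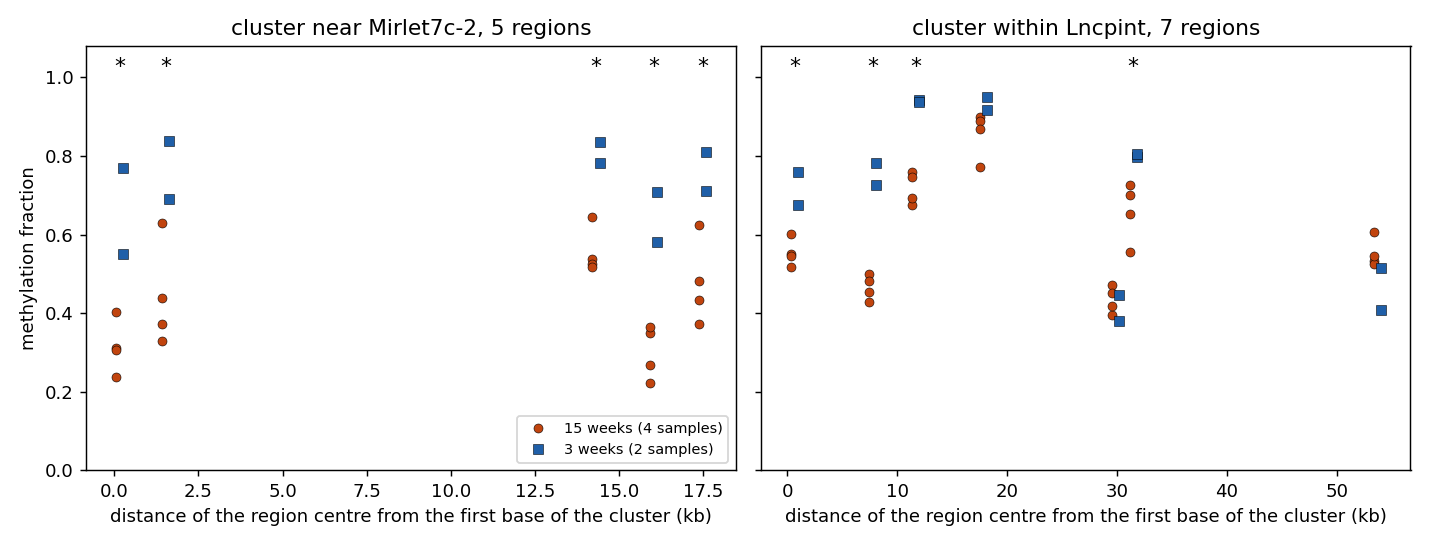
Methylation fraction of each GF stem cell sample in the regions of the chromosome 15 set near Mirlet7c-2 (left) and the set within Lncpint (right), by distance of the region's centre from the first base of the set in kb, with 15-week samples as circles and 3-week samples as squares and a star above each called loss. All 5 regions on the left and 4 of 7 on the right carry a star.

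The annotation of gained and lost regions was set beside that of the whole table. Distal enhancer-like elements held 44 of the 103 gains (42.7%), 59 of the 161 losses (36.6%) and 421 of all 1195 regions (35.2%). Proximal enhancer-like elements held 8 gains (7.77%), 26 losses (16.1%) and 116 of all regions (9.71%). Within gene bodies lay 69 gains (67.0%), 95 losses (59.0%) and 720 of all regions (60.3%). CpG density had close medians, with 2.11 per 100 bp in gains, 2.09 in losses and 2.10 overall. These shares were not tested.

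Most of the changes were also found in GF differentiated cells, whose levels did not enter the call, although their spread did. There, 215 regions (18.0%) fell and 80 (6.69%) rose with age. Of the 161 stem cell losses, 115 were called losses in differentiated cells (71.4% of the stem losses and 53.5% of the differentiated ones) and 0 were called gains. Of the 103 stem cell gains, 56 were called gains there (54.4% of the stem gains and 70.0% of the differentiated ones) and 1 a loss. The sign was the same in 160 of 161 losses and 97 of 103 gains. Over the lost regions, differentiated samples had medians of 0.457 to 0.495 at 15 weeks, against 0.705 and 0.697 at 3 weeks. Cnn3 changed by -0.521 ± 0.0486 (SE, adjusted p = 1.49e-06) in stem cells and by -0.474 in differentiated cells, and Map7 by 0.334 in differentiated cells. Of the largest gains at genes, those of Gm20388 (0.135), Lrrc1 (0.135), Crim1 (0.130), Sqle (0.0479) and Bend7 (0.0400) were not called in differentiated cells. Of the largest losses at genes, that of Cped1 (-0.148) was not called there. The others were called in the same direction. At none of these genes did the difference between the cell types pass the threshold. Identifiers of the GFp stem and differentiated samples match except for the last letter, so both cell types may come from the same animals. The model has no term for the animal and treats these samples as independent. Without 3-week differentiated replicate 1 the counts in differentiated cells were 127 lower and 44 higher.

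At 2 regions the stem and the differentiated change differed by limma (adjusted p under 0.05, 21 below 0 and 89 above 0 at an unadjusted p under 0.05). The first is a promoter-like element in Dand5, 80 bp from the start of Gadd45gip1 by the authors' deposited annotation (chr8:84831602-84831823). In stem cells it had 0.511, 0.545, 0.736 and 0.764 at 15 weeks, against 0.444 and 0.388 at 3 weeks, whereas differentiated cells had 0.506, 0.302, 0.469 and 0.420 at 15 weeks, against 0.681 and 0.670 at 3 weeks. Methylation rose in stem cells and fell in differentiated cells, and the difference between the changes was 0.474 ± 0.0943 (SE, adjusted p = 0.0424). The second lies in Tmsb10, which encodes an actin-binding thymosin (chr6:72957416-72957523). Its stem cells had 0.169, 0.241, 0.382 and 0.211 at 15 weeks, against 0.161 and 0.180 at 3 weeks, and its differentiated cells 0.165, 0.0644, 0.343 and 0.264 at 15 weeks, against 0.518 and 0.722 at 3 weeks. Only the differentiated cells changed past the threshold on their own, and the difference was 0.491 ± 0.0979 (SE, adjusted p = 0.0424). In 11 of the 20 alternatives run for this contrast 0 regions had a stem change above the differentiated change. These were the logit scale, the spread of the compared groups alone, sex as a covariate, and the fits without 15-week stem replicate 3 or 4, either 3-week stem sample, 15-week differentiated replicate 1, 2 or 4, or 3-week differentiated replicate 2. In Dand5 the GFp samples were the higher of the 15-week stem samples, and the stem change was 0.112 with the Co samples alone, 0.191 and 0.181 without 15-week replicate 3 or 4, and 0.251 and 0.195 without 3-week replicate 1 or 2, each time no longer called. The stem call at Dand5 was also lost with the spread of the compared groups alone and with replicate number as a term.

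SPF stem cells give the values of the same regions at both ages with a microbiota. Both 15-week SPF stem identifiers end in Co and neither 3-week identifier does. Identifier style and age therefore cannot be told apart in SPF stem cells. Between the ages 831 regions (69.5%) fell and 12 (1.0%) rose in SPF stem cells, a balance that a choice of regions for low SPF values at 15 weeks would favour. All 161 GF losses were also called losses in SPF stem cells, where they made up 19.4% of the losses. The median change of these regions was -0.197 in GF stem cells and -0.405 in SPF stem cells. Over them the samples had medians of 0.241 and 0.228 at 15 weeks in SPF mice, against 0.665 and 0.661 at 3 weeks. The 103 GF gains had a median change of 0.206 in GF and 0.0110 in SPF stem cells, where 12 were called gains and 6 losses. The 12 gains were all those of SPF stem cells.

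**Figure D5:**
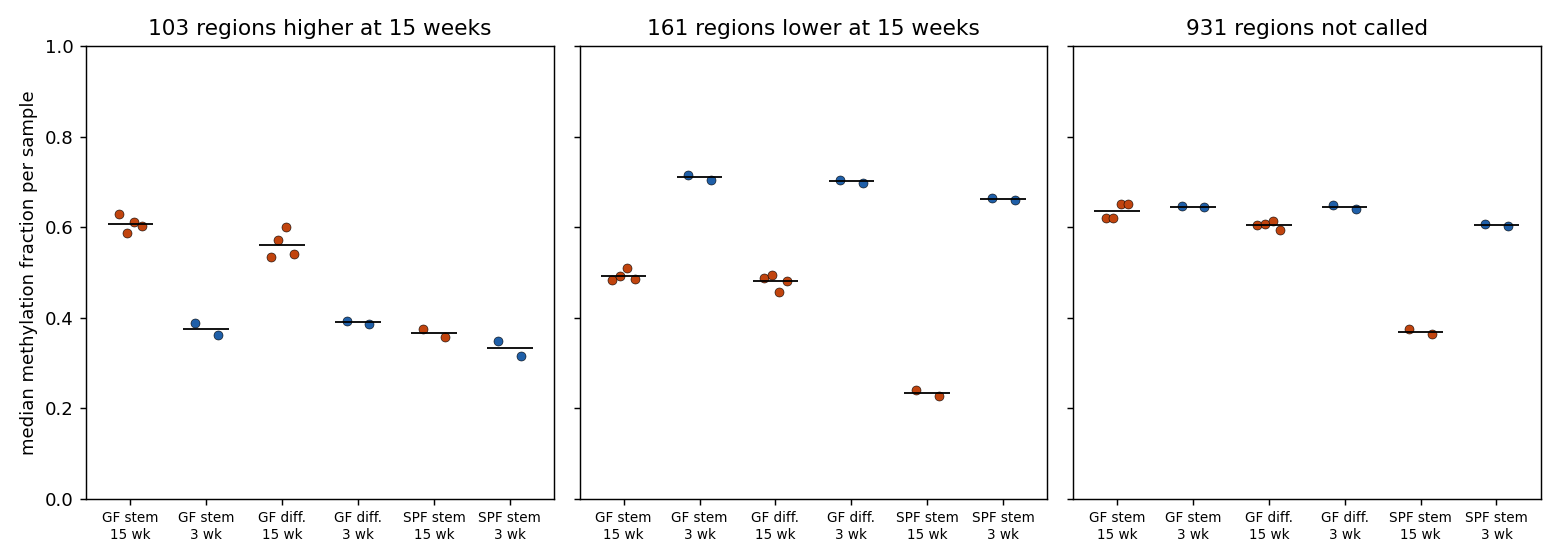
Median methylation fraction of each sample over the 103 regions gained, the 161 lost and the 931 not called with age in GF stem cells, in GF stem, GF differentiated and SPF stem samples at 15 and 3 weeks, with bars at the group means. GF differentiated samples follow the GF stem samples in both sets, and SPF stem samples at 15 weeks lie near 0.37 in the first panel, below 0.25 in the second.

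The GF change exceeded the SPF change at 651 regions (54.5%) and fell below it at 0 (limma, with none below it at an unadjusted p under 0.05 either). The 15-week values in this contrast entered the choice of regions, as taken here, which would favour this direction. The direction and the p-values of this contrast are therefore not independent evidence. Its SPF change also carries the identifier style, which cannot be told apart from age there. Without SPF 15-week replicate 2 the count above was 410. The shares among GF gains (55 of 103, 53.4%) and GF losses (88 of 161, 54.7%) were near that of all regions. At Cdca7 both groups lost methylation, by -0.330 in GF and -0.524 in SPF stem cells, and the difference was 0.194 ± 0.0549 (SE, adjusted p = 0.00942). Kcne3 changed by -0.390 in GF and -0.629 in SPF stem cells, a difference of 0.238 ± 0.0690 (SE, adjusted p = 0.0103). At Cnn3, with -0.521 in GF and -0.594 in SPF stem cells, the difference was 0.0723 ± 0.0743 (SE, adjusted p = 0.382), which missed the threshold. Among gains, Map7 changed by 0.445 in GF and 0.179 in SPF stem cells (difference 0.266 ± 0.0815 (SE, adjusted p = 0.0135)). Cacna1a rose in both as well, by 0.383 in GF and 0.221 in SPF stem cells, and differed by 0.162 ± 0.0589 (SE, adjusted p = 0.028). Bend7 and Lrrc1 gained in GF stem cells, whereas their SPF changes of -0.0355 and -0.118 missed the threshold, with differences of 0.369 ± 0.0670 (SE, adjusted p = 0.000468) and 0.433 ± 0.0861 (SE, adjusted p = 0.000969). Prdm1 changed by 0.206 in GF and 0.0169 in SPF stem cells, a difference of 0.189 ± 0.0641 (SE, adjusted p = 0.0214).

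The identifier styles of the 15-week samples differed at few regions. By limma 4 regions were lower in the Co than in the GFp samples and 0 higher (at an unadjusted p under 0.05, 107 and 36). They lie at Prom1 (-0.248), Impact (-0.319), the region shared by Peg10 and Sgce (-0.366) and an intergenic site at chr12:99644912-99645426 (-0.378), and none was called with age. Without replicate 1 the count was 0, without replicate 2 it was 14 (with 6 higher), without replicate 3 it was 1 and without replicate 4 it was 0. Impact, Peg10 and Sgce are imprinted genes in the mouse. The median difference between the styles over all regions was -0.0149.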

How the data were processed

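Genomic DNA was bisulfite-treated (EZ DNA Methylation-Direct) and made into xGen Methyl-Seq libraries, according to the labels' protocols. The submitters' processing notes name BSMAP 2.90 and mm10. The sources used here do not give the region caller, its test or any coverage filter. Per the file headers, the deposited values are a methylation fraction for each region in each sample. The authors also deposited a methylation difference for each region (a signed score whose groups the header does not name), a CpG number, a p-value, and the gene and candidate regulatory element annotation used here. Coordinates stand as in the deposited table.

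Samples were grouped by the microbiota, cell type and age of their labels. A limma model (version 3.58.1, in R 4.3.3) with a mean for each of 8 groups took the fractions of the 20 samples, which lets groups of 2 share the spread of the others. P-values of each contrast were adjusted by Benjamini-Hochberg over 1195 regions, with a threshold of 0.05. Contrasts were 15 minus 3 weeks in each cell type, GF change minus SPF change, stem change minus differentiated change, and Co minus GFp at 15 weeks. For sample means an exact permutation test (two-sided) was used. No read counts accompany the fractions, so depth is unknown and no interval for a fraction can be given. The labels do not say whether samples of 1 sex are separate animals, so the p-values reflect spread between the samples given, which may be partly technical. Replicate pairs of GF stem cells differed on average by 0.0754 to 0.0942 in a region, with at most 1 identical value, and none was counted as a duplicate. The model code was checked on simulated data with independent samples, which does not test that assumption for these data.

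The regions, the 19 gene lists and the rules for named genes were chosen with earlier results of these data known. Named were the 12 largest called gains and 12 largest called losses whose groups do not overlap (1 region per gene, intergenic regions left out of the order), every called region at a listed gene (except a few that are not reported here), genes with at least 3 called regions (0 found), and the 8 regions with the largest deposited difference. Also named, chosen after their values were seen, were the clusters, the regions over a start site, and the regions where stem and differentiated changes or identifier styles differed. RefSeq genes near the clusters and the printed sequences are from GRCm38.p6. Sequences of the regions themselves are not shown, since no genome was used here. Alternatives were the logit scale (fractions bounded to 0.01 and 0.99), the spread of the compared groups alone, either identifier style, sex or replicate number as a term, regions with at least 15 CpGs, a robust prior with a trend, and each sample left out. A coverage minimum could not be varied.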

Additional observations from a re-analysis of the deposited data

Results flagged for a closer look

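At 15 weeks 1 GF stem cell sample lay far from the others of its group at 3 of 69 sets of values checked, where chance alone gives about 1 in 20. These were replicate 2 at Crim1 (0.412), replicate 4 at Pparg (0.538) and replicate 1 at the chromosome 15 region that starts at 85678491 (0.644).

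At 12 of the 24 largest gains and losses at genes (intergenic regions left out) the GF change differed from the SPF change in stem cells by the limma contrast of the changes, coded as GF change minus SPF change. Among gains the difference was 0.266 at Map7, 0.276 at Gm20388, 0.162 at Cacna1a, 0.369 at Bend7, 0.433 at Lrrc1, 0.301 at Esrrg, 0.301 at Crim1 and 0.217 at Sqle. Among losses it was 0.238 at Kcne3, 0.183 at Sft2d2, 0.261 at Dlgap1 and 0.194 at Cdca7. Over all 1195 regions 651 (54.5%) had a GF change above the SPF change, so 12 of 24 lay near the share of all regions. The regions were taken as chosen for this order at 15 weeks, so the direction is not independent evidence.

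Within GF mice the stem change exceeded the differentiated change by 0.474 at Dand5 and by 0.491 at Tmsb10, again by a test of the difference itself. In 11 of the 20 alternatives for this contrast 0 regions had a stem change above the differentiated change.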

How the results depend on the processing

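No result reversed under the alternatives run. In GF stem cells the counts of 161 losses and 103 gains moved by over 1.5 times with the spread of the compared groups alone (90 and 58), without either 3-week sample (89 and 66 without replicate 1, 97 and 59 without replicate 2) and among the 181 regions with at least 15 CpGs (30 and 19), where fewer regions were tested. That setting also gave 42 losses and 13 gains in GF differentiated cells, 123 regions with a GF change above the SPF change, and 1 region with a stem change above the differentiated change. With the Co samples alone, 2 regions had a GF change below the SPF change, and 1 region had a stem change below and 1 above the differentiated change. The last count was 0 on the logit scale, with the groups compared alone and with sex as a term. The cause was not tested. Leaving out 1 sample at a time gave 89 to 170 losses and 59 to 112 gains in GF stem cells, 127 to 210 and 44 to 84 in differentiated cells, 410 to 670 regions with a GF change above the SPF change and 0 to 2 below, 0 to 4 with a stem change above the differentiated change and 0 to 0 below, 0 to 14 lower and 0 to 6 higher in Co than in GFp samples, and a difference in sample means of -0.0156 to -0.00667.

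Samples with the same replicate number at both ages shared only a number (correlations of their deviations 0.0248 and 0.0297). With a replicate block, 143 regions fell and 99 rose in GF stem cells, of which 127 and 89 were among the 161 and 103, 625 had a GF change above the SPF change, and 3 a stem change above the differentiated change. Of 68 single regions followed, 56 were called, and 30 of these under every alternative that tested them. Their 897 single comparisons kept the call or its absence in 793, lost a call in 100 and gained one in 4. The unknown depth and the 2 samples at 3 weeks limit all of these results.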
